A study of Homo sapiens with 4 samples.

Results

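IQGAP1, IQGAP2 and IQGAP3, a family of scaffold proteins, were followed together with the small GTPases RAC1, CDC42, RHOA, RHOB and RHOC in a human colon cancer line with and without an HMGA2 plasmid. A probe was taken where the platform annotation gave it 1 of these symbols and no other gene. That rule found 11 probes for all 8 genes, among 24740 single-gene probes for 18336 genes. The family was selected on the log2 difference of IQGAP2 in this same comparison, where it was among the larger rises. The differences of the 8 genes are therefore given as descriptions and carry no p-value.

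IQGAP proteins bind actin filaments through a calponin homology domain and calmodulin through IQ motifs. Their GAP-related domain holds active CDC42 and RAC1 in the GTP-bound form and, despite its name, does not speed up GTP hydrolysis. These GTPases are switches: exchange factors (GEFs) load them with GTP, GTPase-activating proteins (GAPs) turn them off, and dissociation inhibitors (GDIs) keep them in the cytosol. In colon epithelium they organise cell junctions, apical polarity and crawling, and IQGAP1 sits at E-cadherin junctions where it can bind beta-catenin.

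DLD-1 is an established colorectal adenocarcinoma line. Both groups were stable transfectants. The line DLD-1-HMGA2 carried a pCMV6 plasmid for HMGA2 with a turboGFP tag, and DLD-1-Vector carried pCMV6-AC-GFP. HMGA2 is an AT-hook chromatin protein of embryonic tissue and many tumours, and the CMV promoter drives it independently of the gene's own control. Both lines were selected with 1 mg/mL G418, kept in 0.5 mg/mL and left untreated otherwise. The sources used here do not say how many clones each line came from, so a difference between clones and an effect of the plasmid cannot be told apart. RNA of each line was read on 2 single-colour arrays, and nothing states that these came from separate cultures, so the spread between them may be technical.

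Median probe intensity ran from 607 to 767 over the 4 arrays, and replicate arrays correlated at r = 0.988 and 0.992 across genes. Epithelial markers mostly fitted the labelled line, 8 of 11 lying above the median gene, with EPCAM, CDH1 and KRT8 among them. CDX1 was among those below it. Summed intensity of that list was 458389 to 481431 on the arrays labelled vector and 525646 to 532902 on those labelled HMGA2. Of 6 fibroblast, 4 leukocyte and 4 endothelial markers on the array, 1, 1 and 0 lay above the median gene. Their summed intensities were 4818 to 6050 against 4274 to 5017, 4935 to 5445 against 3161 to 3540, and 2075 to 2223 against 1863 to 1934 (vector against HMGA2). HMGA2 itself did not check the labels: its brighter probe read 5576 and 5270 on the vector arrays and 3917 and 4369 on the HMGA2 arrays. The dimmer HMGA2 probe read 2728 and 3493, then 4596 and 3466, and overlapped between groups. Whether either probe reads the transcript of the plasmid was not tested. Directions below therefore rest on the labels, and "HMGA2 arrays" means the arrays labelled HMGA2.

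Across 13752 genes bright enough to test, 43.6% passed an adjusted p of 0.05 (limma, Benjamini-Hochberg), 14.9% higher and 28.7% lower on the HMGA2 arrays. This background depended on array scaling: rises were 34.2% of calls as deposited and 55.2% after quantile normalization, which moved the median gene from -0.09 to 0.09 log2. All 8 genes were among those called, 2 higher and 6 lower. Since the genes were picked with this comparison known, nothing follows from that count. For 8 of 8 genes the 2 groups did not overlap, which held for 71.3% of all genes tested. A probe's intensity also depends on its sequence. Apart from the rough marker check above and the filter on dim genes, levels are therefore compared between arrays and not between genes. In bulk RNA, fewer cells expressing a gene and less RNA per cell cannot be told apart.

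**Figure D1:**
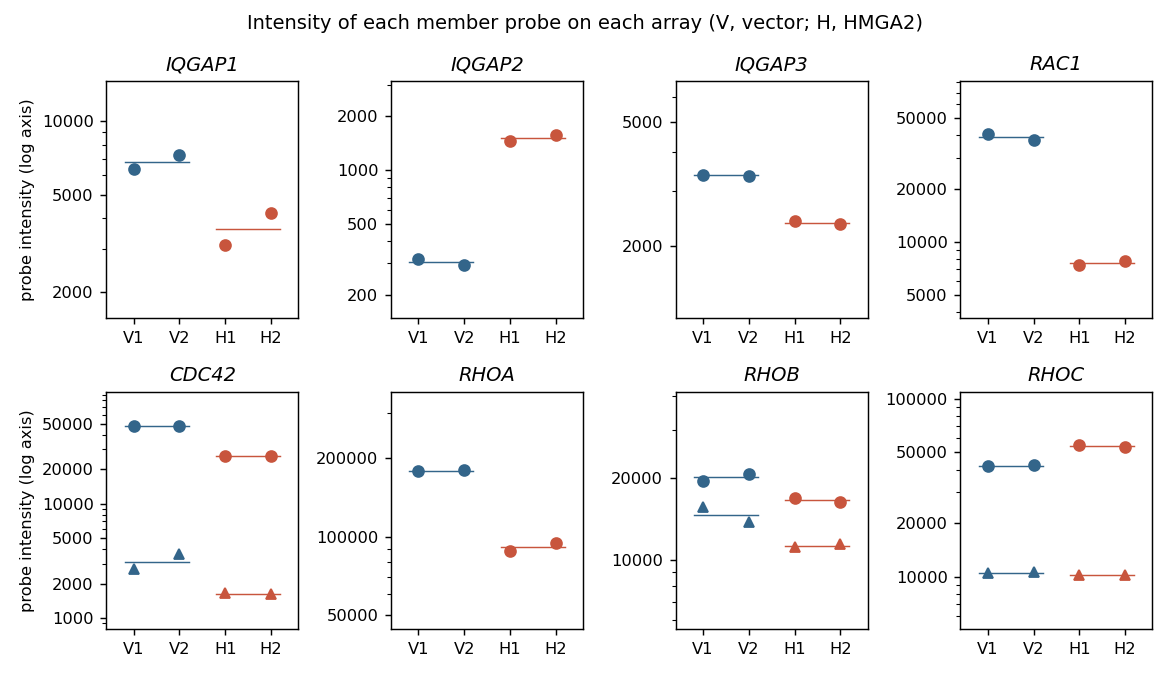
Intensity of each probe of the 8 genes on each array, on log axes. V1 and V2 are the arrays labelled vector (blue) and H1 and H2 those labelled HMGA2 (red); circles are the sole or brighter probe, triangles the dimmer probe, and lines the geometric group mean. IQGAP2 is low on both vector arrays (316 and 295) and RAC1 is low on both HMGA2 arrays (7407 and 7773).

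The 3 IQGAP scaffolds did not move together. IQGAP2, a family member best known from liver and described in several cancers as lost, was about 5 times brighter on the HMGA2 arrays, whereas IQGAP1 and IQGAP3 were dimmer there. IQGAP2 read 316 and 295 on the vector arrays and 1461 and 1577 on the HMGA2 arrays. Both HMGA2 arrays were far above both vector arrays, and the gap between replicates was small beside the gap between groups. The fold was 4.97 (log2 difference 2.31, SE 0.14), and the 4 possible pairs of 1 array from each group gave 2.21 to 2.42. It was the difference ranked 15 from the top among the 13752 genes. Its vector intensities lay close above 234, the level below which genes were set aside as dim. At that low level the size of the difference depended on the setting: it was 2.14 log2 with 50 added to each intensity and 2.50 after quantile normalization.

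IQGAP1, the widely expressed scaffold of the leading edge and of cell junctions, read 6382 and 7297 on the vector arrays and 3127 and 4199 on the HMGA2 arrays. All readings of the HMGA2 group were below all of the vector group, but the HMGA2 replicates stood 0.43 log2 apart, the widest replicate gap at any brighter probe of the 8 genes. The vector level was 1.88 times the HMGA2 level (log2 difference -0.91, SE 0.16), and -0.72 after quantile normalization. Single pairs of arrays gave between -1.22 and -0.60.

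IQGAP3, which is tied to proliferating epithelial cells, read 3383 and 3359 against 2403 and 2345. Replicates differed by no more than 0.04 log2, and the HMGA2 arrays were lower throughout. The log2 difference was -0.51 (SE 0.09), a vector level 1.42 times that of HMGA2. With scaling it shrank to -0.28, both after quantile normalization and with array medians subtracted, and in the second case IQGAP3 was no longer called.

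A ratio of probes on the same array does not depend on a scaling factor of that array, but it does depend on the background level. The log2 ratio of IQGAP2 to IQGAP1 was -4.34 and -4.63 on the vector arrays and -1.10 and -1.41 on the HMGA2 arrays. It thus moved by 3.23 log2, or 9.36-fold, towards IQGAP2. With 50 added to each intensity the shift is smaller, since IQGAP2 then differed by 2.14 and IQGAP1 by -0.90 log2. Against IQGAP3 the ratio of IQGAP2 moved by 2.82, from -3.42 and -3.51 to -0.72 and -0.57. IQGAP1 and IQGAP3 kept more nearly in step, their ratio changing by -0.41. Only these shifts can be read, since the ratios themselves compare different probes.

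Because IQGAP1 and IQGAP2 went opposite ways, the stretches around their start sites are shown. Each runs from 250 bases before the start to 50 after it, 5′ to 3′ on the plus strand of GRCh38.p14, from RefSeq. Windows were found for 7 of the 8 genes, all except RAC1. Capitals mark GC boxes (GGGCGG on either strand) and CCAAT boxes (CCAAT on either strand).
IQGAP1, chr15:90387992-90388291: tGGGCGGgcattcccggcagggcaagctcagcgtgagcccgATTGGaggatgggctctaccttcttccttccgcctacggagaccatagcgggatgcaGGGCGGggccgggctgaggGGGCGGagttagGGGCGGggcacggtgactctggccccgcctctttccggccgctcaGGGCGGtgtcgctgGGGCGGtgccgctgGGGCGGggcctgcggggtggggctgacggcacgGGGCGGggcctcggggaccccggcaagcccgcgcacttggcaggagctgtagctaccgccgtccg
IQGAP2, chr5:76403035-76403334: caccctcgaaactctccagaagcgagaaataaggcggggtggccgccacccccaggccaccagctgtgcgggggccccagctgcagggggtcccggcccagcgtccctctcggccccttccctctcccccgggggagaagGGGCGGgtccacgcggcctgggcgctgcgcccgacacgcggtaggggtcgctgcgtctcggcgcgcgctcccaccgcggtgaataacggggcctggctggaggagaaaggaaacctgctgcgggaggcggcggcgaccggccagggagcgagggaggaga
The IQGAP1 window holds 8 GC boxes and 1 CCAAT box, and the IQGAP2 window 1 GC box and 0 CCAAT boxes, with no overlap between matches. Of 35116 RefSeq windows of the same length, 45% hold a GC box and 34.6% a CCAAT box. Base composition was otherwise alike: 74% and 73.7% G or C, and 31 and 32 CpG dinucleotides, against a median of 14. The longest unbroken run of A or T, the kind of sequence AT-hooks bind, was 3 bases in IQGAP1, 6 in IQGAP2 and a median of 6 over all windows. A TATA box (TATAAA), an AP-1 site (TGACTCA) and an E-box (CACGTG) were found on neither strand of either window, and 11.5%, 4.95% and 7.26% of all windows hold them. These letter matches are descriptions and were not tested against the expression values.

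RAC1 showed the deepest difference of the GTPases. RAC1 drives the branched actin sheets of lamellipodia through the WAVE complex. Its single probe read 40645 and 37582 on the vector arrays and 7407 and 7773 on the HMGA2 arrays. Replicates lay within 0.11 log2 of each other, and both HMGA2 arrays were far below both vector arrays. The vector level was 5.15 times the HMGA2 level (log2 difference -2.36, SE 0.08), rank 67 from the bottom of all genes tested. Scaling changed this little, to -2.26 after quantile normalization and -2.14 with array medians subtracted.

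CDC42, which directs filopodia and epithelial polarity, was lower by nearly the same amount at both of its probes. The brighter probe read 47660 and 47437 against 26245 and 26134, and the dimmer one 2688 and 3599 against 1660 and 1608. Neither probe's groups overlapped. The log2 differences were -0.86 (SE 0.07) and -0.93 (SE 0.13), that is vector levels 1.82 and 1.9 times the HMGA2 levels. After quantile normalization they were -0.79 and -0.69. RAC1 stood 2.84-fold further down than CDC42 on the same arrays, the log2 ratio going from -0.23 and -0.34 to -1.83 and -1.75.

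RHOA, the GTPase of stress fibres and actomyosin tension, was also lower. Its probe read 178768 and 180710 on the vector arrays and 88261 and 94398 on the HMGA2 arrays, 1.97 times brighter on the former (log2 difference -0.98, SE 0.07). No arrays overlapped between groups, and quantile normalization gave -0.89. RHOA and CDC42 differed from each other by only 0.12 log2 in how far they moved.

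RHOB and RHOC, the closest relatives of RHOA, moved less than RHOA. RHOB, a short-lived endosomal GTPase induced by stress and growth factors, read 19462 and 20680 against 16787 and 16218 at its brighter probe. The dimmer probe read 15534 and 13752 against 11119 and 11357. Both were lower on the HMGA2 arrays without overlap, by -0.28 (SE 0.08) and -0.38 (SE 0.10) log2. Of the 8 calls that of RHOB was lost most often, among others after quantile normalization (-0.20), with array medians subtracted (-0.06) and when vector replicate 1, vector replicate 2 or HMGA2 replicate 2 was left out.

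RHOC, which is linked to motility and metastasis, was the only GTPase of the 5 that was higher, and only at 1 of its 2 probes. The brighter probe read 41995 and 42344 on the vector arrays and 54735 and 53629 on the HMGA2 arrays, a log2 difference of 0.36 (SE 0.07). Its dimmer probe read 10521 and 10632 against 10210 and 10277, a difference of -0.05 (SE 0.09). The probes thus disagree in sign as deposited, and the second changed to 0.08 after quantile normalization while the first was 0.43. With the mean of both probes RHOC stood at 0.16 and was no longer called. Probe sequences were not used here, so which transcripts they read, and whether related GTPase genes hybridise to them, was not tested. On the same arrays the log2 ratio of the brighter RHOC probe to RHOA went from -2.09 on both vector arrays to -0.69 and -0.82, a shift of 1.34, and that of RHOB to RHOA shifted by 0.70.

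**Figure D2:**
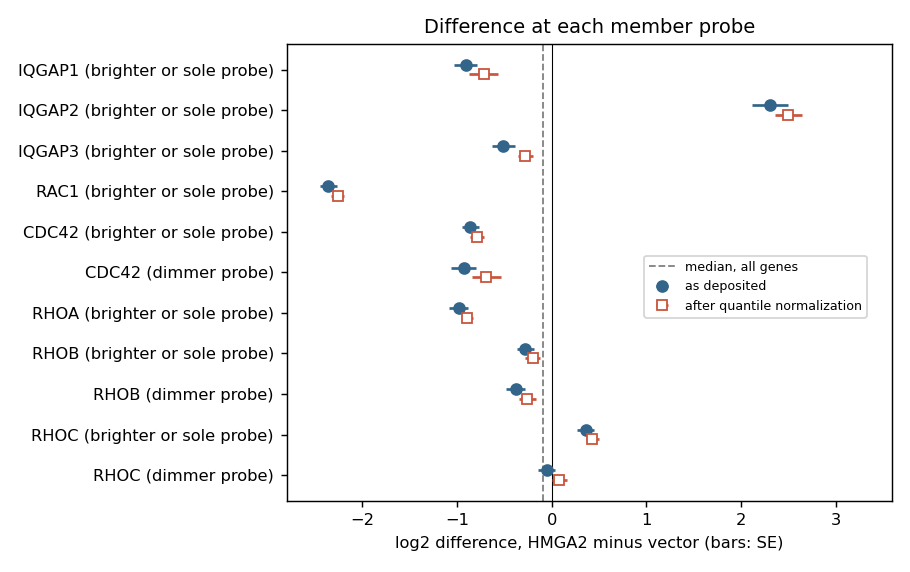
Log2 difference, HMGA2 minus vector, at each of the 11 probes, as deposited (filled circles) and after quantile normalization (open squares), with the SE of a limma fit of every probe as bars. The dashed line is the median of all genes tested, -0.09; IQGAP2 lies at 2.31, RAC1 at -2.36, and the RHOC probes at 0.36 and -0.05.

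**Figure D3:**
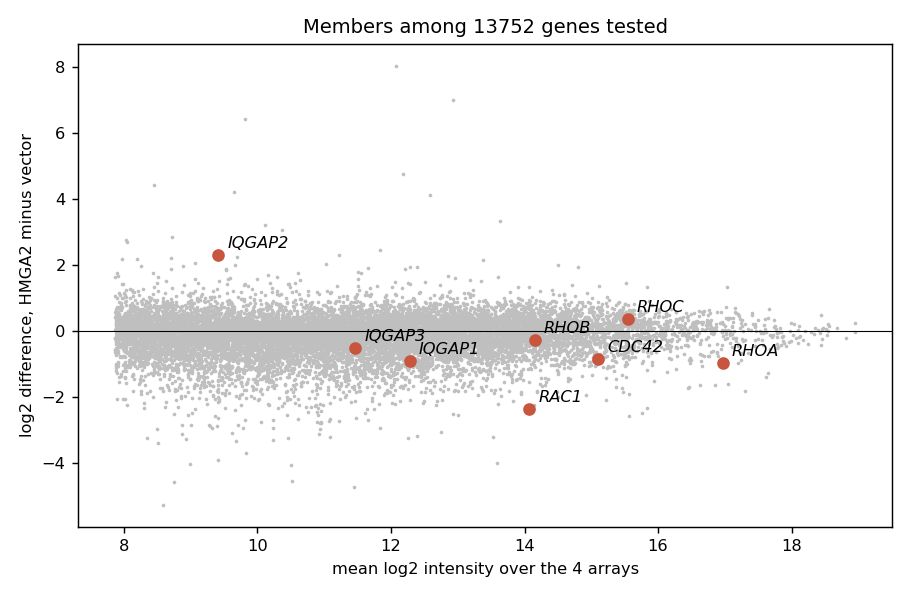
Log2 difference (vertical) against mean log2 intensity over the 4 arrays (horizontal) for 13752 genes tested (grey), with the 8 genes in red. IQGAP2 stands near the upper edge and RAC1 near the lower edge at its brightness, while RHOB, RHOC and IQGAP3 lie within the bulk.

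The 5 genes whose pattern lay closest to that of IQGAP2 were PIK3AP1, SLC2A3, RRBP1, CATSPERZ and CST6. Likeness was the Euclidean distance between log2 values, each gene less its own mean, over the 4 arrays. PIK3AP1, an adaptor for phosphoinositide 3-kinase, was nearest at 0.0972 and read 408 and 353 against 1746 and 1880. SLC2A3, a glucose transporter, followed at 0.118, with 1086 and 1061 against 5361 and 5210. The distances of RRBP1, CATSPERZ and CST6 were 0.223, 0.276 and 0.293. CATSPERZ read 111 and 123 on the vector arrays, below the dim level of 234, and 563 and 510 on the HMGA2 arrays, so it was tested only because of the group where it is high. With 4 arrays in 2 groups, such likeness mostly restates a similar difference between the groups.

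The other genes of the pathway were read from 9 lists ordered by role, which contain none of the 8 genes. The lists were chosen with earlier results of these data known, so their counts and medians are descriptions, and no set test was run. Adjusted p-values of single listed genes come from the fit of all genes and are no evidence about the pathway. Of 190 listed genes tested, 23 rose and 67 fell in the limma fit of all genes, so 47.4% were called beside 43.6% of all genes. Their median difference was -0.19 log2 beside -0.09. After quantile normalization 40 rose and 54 fell of 191, with a median of 0.01 beside 0.09 over all genes, of which 50.6% were then called, 28% higher and 22.6% lower. The share of listed genes called was thus close to that of all genes in both versions. Pooled, the lists held more falls than rises in both versions, while over all genes rises became the larger share. Single lists did not all share this. Other GTPases had 4 of each as deposited, and 6 rises and 4 falls after quantile normalization. Rises then also outnumbered falls among GDIs and turnover factors (4 and 1) and actin and myosin effectors (6 and 5). GAPs then had 7 of each, and the PAK, MRCK, PAR6 and CDC42EP list 3 rises and 13 falls.

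Among 13 other GTPases of the family tested, 4 rose and 4 fell, with a median of -0.11. That is 61.5% called, beside 43.6% of all genes. Quantile normalization gave 6 rises and 4 falls, with a median of 0.12 beside 0.09 over all genes. RHOU, an atypical relative of CDC42 that responds to Wnt, read 5142 and 5501 against 1582 and 1678 and fell by 1.71 log2 (SE 0.09, adjusted p = 1.4e-04). RHOBTB1 (-1.23) and the CDC42 relative RHOQ (-1.16) fell too. Those that rose were RHOBTB2 (0.51), the leukocyte form RAC2 (0.43), RHOG (0.43) and RHOV (0.41). RAC3, the remaining close relative of RAC1, did not pass, with 925 and 737 against 620 and 744. Members named beyond the 4 largest differences of each list, such as RAC3 here, were chosen after their values were seen.

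Of 26 genes tested in the list of GEFs that act on RAC1 or CDC42, 3 rose and 7 fell (median -0.22). That is 38.5% called, beside 43.6% of all genes. Quantile normalization gave 4 rises and 7 falls among 27, with a median of -0.01 beside 0.09 over all genes. ELMO2 and ELMO3 on this list are partners of DOCK proteins and not GEFs themselves. Falls included 4 members of the DOCK family: DOCK11 (-1.83) and DOCK8 (-1.36), which act on CDC42, DOCK4 (-1.32) and DOCK6 (-0.79). On the HMGA2 arrays DOCK11 read 251 and 213, around the dim level of 234. It was thus tested only because of the vector arrays, where it read 815 and 824. DOCK1, DOCK2, DOCK5 and DOCK10 were tested and did not pass. VAV2, a GEF activated by receptor tyrosine kinases, fell by 1.06 log2. DOCK9 (0.88), ELMO3 (0.72) and TRIO (0.45) rose, but a second DOCK9 probe gave -0.04. Second probes of DOCK4 and VAV2 gave -0.38 and -0.27.

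In the list of GEFs for RHOA, RHOB or RHOC, 1 of 16 rose and 6 fell (median -0.18). That made 43.8% called, beside 43.6% of all genes. Quantile normalization gave 3 rises and 5 falls, with a median of 0.00 beside 0.09 over all genes. ARHGEF3 read 4067 and 3648 against 1191 and 1185 and fell by 1.70 log2 (adjusted p = 1.63e-04). NET1, a RHOA exchange factor held in the nucleus, read 29697 and 28624 against 9595 and 10505 and fell by 1.54 (adjusted p = 1.37e-04). ARHGEF5 (-1.13) and PLEKHG5 (-1.06) fell as well. ARHGEF1, a RHOA exchange factor coupled to G proteins, rose by 0.57.

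GAPs of the family gave 3 rises and 10 falls among 30 tested, with a median of -0.15, and 7 and 7 after quantile normalization. As deposited 43.3% of them were called, beside 43.6% of all genes. ARHGAP29, a GAP for RHOA, read 5642 and 5444 against 774 and 903, the deepest fall among the GAPs at the brightest probe of each (-2.73, SE 0.11, adjusted p = 7.93e-05). Its second probe was dim and overlapped between groups, with 172 and 188 against 241 and 165. ARHGAP32 fell at its brighter probe (-1.41), and its other probe, with 4118 and 4011 against 589 and 588, gave -2.79. By the mean of probes ARHGAP32 (-2.10) fell further than ARHGAP29 (-1.29). DLC1 (-1.26) and ARHGAP21 (-1.14), a GAP for CDC42 at the Golgi, fell, but the mean of the DLC1 probes was -0.33 and did not pass. ARHGAP17 (0.62), ARHGAP10 (0.57) and GMIP (0.47) rose.

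GDIs, prenylation enzymes and turnover factors held 1 rise and 2 falls among 11, a median of -0.08. That is 27.3% called, beside 43.6% of all genes. Quantile normalization gave 4 rises and 1 fall, with a median of 0.06 beside 0.09 over all genes. TNFAIP1, an adaptor that hands RHOA to a CUL3 ubiquitin ligase, rose by 0.47 log2 (adjusted p = 0.00876). ARHGDIG (-0.44) and ARHGDIB (-0.31) fell. Both calls depended on scaling: ARHGDIB was at -0.21 after quantile normalization (adjusted p = 0.0513) and -0.09 with array medians subtracted, where ARHGDIG stood at -0.21, and none of these passed. ARHGDIA, the most general of the GDIs, read 7276 and 7940 against 7047 and 7300 and did not pass.

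The kinases, polarity proteins and binding proteins downstream of CDC42 and RAC1 had the lowest median difference of the 9 lists. Of 25 tested, 1 rose and 14 fell, with a median of -0.53 beside -0.09 for all genes. The called share was 60%, beside 43.6% of all genes. After quantile normalization 3 rose and 13 fell, with a median of -0.39 beside 0.09. CDC42EP5 read 5481 and 4539 against 1536 and 1607 and fell by 1.67 log2 (SE 0.12, adjusted p = 2.66e-04). CDC42EP4 (-0.95), CDC42EP3 (-0.72) and CDC42EP2 (-0.52) of the same family, which links CDC42 to septins, also fell, whereas CDC42EP1 read 2418 and 2581 against 2547 and 2560. After quantile normalization CDC42EP2 (-0.26) was not called and CDC42EP1 was called higher. CDC42SE2, a small CDC42 effector, fell by 1.25. PARD6B, a polarity adaptor, fell by 1.56 log2, and the CDC42-bound tyrosine kinase TNK2 also fell (-1.01). A dim second probe of PARD6B went the other way (188 and 245 against 348 and 314, a difference of 0.62), and the mean of its probes did not pass. The second TNK2 probe, at 13 and 52 against 88 and 17, was too dim to give a direction. The p21-activated kinases PAK4 (-0.86) and PAK6 (-0.66) fell, and PAK2 read 9724 and 7969 against 6442 and 7451 without passing. CDC42BPA, the kinase MRCK-alpha, was the rise (0.36), although another of its probes gave -0.99.

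The WASP, WAVE and Arp2/3 list, which builds branched actin, held 4 rises and 7 falls among 22, a median of -0.13. Among Arp2/3 subunits 5 fell and 2 rose. ARPC5L (-0.23) and ARPC2 (-0.08) did not pass, although a second ARPC2 probe gave -1.40. Of the whole list 50% was called, beside 43.6% of all genes (28.7% lower and 14.9% higher). Quantile normalization gave the list 4 rises and 5 falls, with a median of -0.01 beside 0.09 over all genes. ACTR2, the Arp2 protein itself, read 33820 and 36735 against 9241 and 10377 and fell by 1.85 log2 (SE 0.09, adjusted p = 1.19e-04), and ARPC5 fell by 1.19. ARPC3 (-0.54), ARPC1B (-0.44) and ACTR3 (-0.28) fell less. ARPC1A read 53051 and 52528 against 83196 and 78943 and rose by 0.62 (adjusted p = 0.00108), and ARPC4 rose by 0.54. In the WAVE complex NCKAP1 (-1.31) and CYFIP2 (-0.54) fell, and CYFIP1 (0.48) and WASF2 (0.24) rose, although a second WASF2 probe gave -0.21. ACTR3 (-0.19) and CYFIP2 (-0.41) were not called after quantile normalization. Second probes of ACTR2 and ARPC5 gave -0.35 and -0.14, and -0.09 and 0.06 after quantile normalization. At the second ARPC5 probe the groups overlapped.

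Effectors of RHOA and its relatives towards actin and myosin gave 4 rises and 7 falls among 27, with a median of -0.09, as for all genes. The called share was 40.7%, beside 43.6% of all genes. Quantile normalization gave 6 rises and 5 falls, with a median of 0.12 beside 0.09 over all genes. PKN2, a kinase bound by RHOA and RAC1, fell by 1.12 log2 (adjusted p = 2.3e-04), as did PPP1R12A, the targeting subunit of myosin phosphatase (-1.01). DIAPH2 fell by 0.97 at its brightest probe, and its others gave 0.29 and -0.16. PKN3 fell by 0.65, a call lost without HMGA2 replicate 2 (-0.56). The kinase ROCK1 (0.26), the RHOA-binding protein RTKN (0.32), MYL12B (0.25) and LIMK2 (0.36) rose, but both other LIMK2 probes were negative (-0.48 and -0.46). ROCK2 and DIAPH1, the other main routes from RHOA to actin, did not pass, at -0.01 and 0.05.

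Binding partners of the IQGAP scaffolds gave 2 rises and 10 falls among 21, with a median of -0.39. As deposited 57.1% were called, beside 43.6% of all genes. Quantile normalization gave 3 rises and 7 falls, with a median of -0.17 beside 0.09. CD44, the hyaluronan receptor, read 2708 and 2832 against 473 and 350 and fell by 2.77 log2 (SE 0.17, adjusted p = 1.7e-04). A dimmer CD44 probe overlapped between groups, with 366 and 494 against 398 and 353. ARF6, a GTPase of membrane traffic that works with RAC1 at the cell edge, fell at its brighter probe (-1.93, adjusted p = 9.27e-05), and its other probe was also lower, with 12749 and 12437 against 6906 and 5703. The kinase MAPK3 (-1.02) and the calcium-binding protein S100P (-0.93) fell. Of the junction proteins that IQGAP1 binds, beta-catenin (CTNNB1) read 158873 and 158076 against 92182 and 94750 and fell by 0.76, while E-cadherin (CDH1) rose by 0.26 and the receptor ERBB2 by 0.58. Calmodulin gene CALM3 read 14500 and 15234 against 15082 and 15010.

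**Figure D4:**
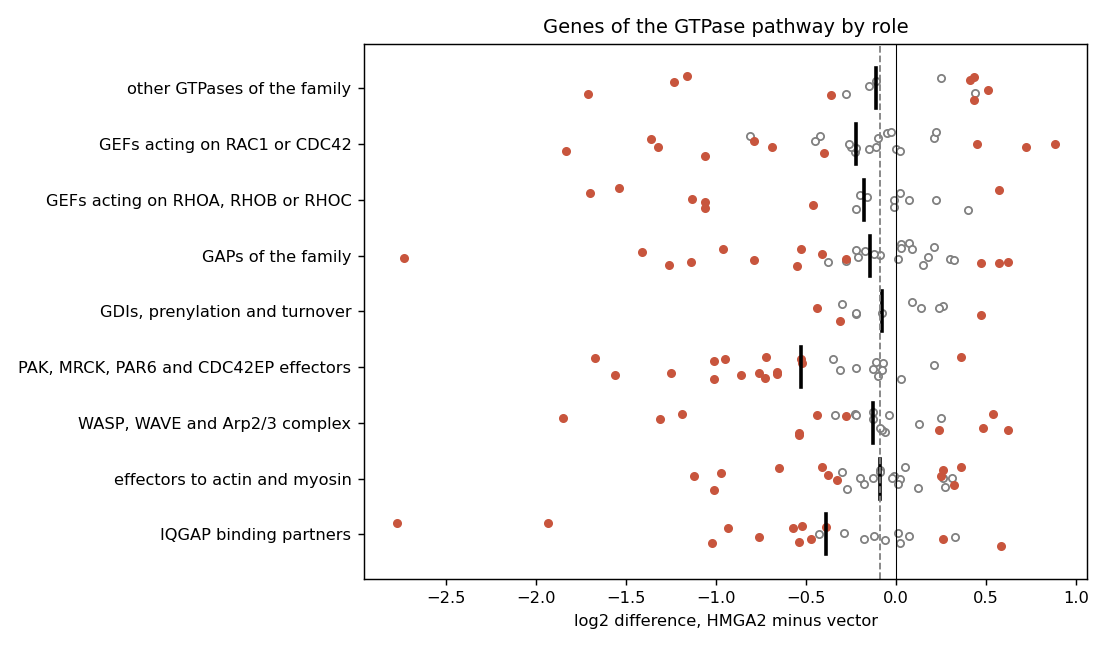
Log2 difference, HMGA2 minus vector, of each tested gene in 9 lists of the pathway. Red points passed the limma threshold and open points did not, black bars are list medians, the dashed line is the median of all genes (-0.09), and vertical jitter has no meaning; the list of PAK, MRCK, PAR6 and CDC42EP effectors has the lowest median, -0.53.

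Where a called gene had further probes above the dim limit, these shared its sign in all cases for 24 of 33 pathway genes (72.7%) and 1152 of 1793 called genes overall (64.2%). Among the 8 genes, CDC42 and RHOB had probes of 1 sign and RHOC did not. The remaining 5, IQGAP1, IQGAP2, IQGAP3, RAC1 and RHOA, rest on 1 probe each.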

How the data were processed

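The deposited values are linear intensities of 31741 probes on each array. Which scanner, background correction and normalization the authors used is not stated in the sources used here. Cy5-coupled antisense RNA was hybridised, per the labels' protocols. Groups and replicate numbers came from sample titles. By the platform annotation 24740 probes have 1 gene symbol, 977 have several and 6024 have none. Older symbols of 1948 probes were updated through RefSeq genes.

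Values below 1 were set to 1 and log2 taken without further normalization. Each gene was represented by its brightest probe, and genes dimmer on average than 7.87 log2, the 25th percentile, were left out. Differences were fitted with limma 3.58.1 in R 4.3.3 (eBayes with an intensity trend), Benjamini-Hochberg adjustment and a threshold of 0.05. SEs of dimmer probes came from a fit of every probe. The fit was tested on simulated data. An exact permutation of 2 arrays against 2 cannot go below p = 0.333. The 8 genes and the lists were chosen with earlier results of these data known. Named were all probes of the 8 genes, up to 4 called genes with the largest non-overlapping differences per list, and the 5 genes nearest to IQGAP2. Alternatives were other scalings, background steps, filters, probe rules and variance models, a replicate block and each array left out.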

Additional observations from a re-analysis of the deposited data

How the results depend on the processing

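All 8 genes kept their direction at the probe that stands for them, or as the mean of probes, under every alternative that measured them; IQGAP2 was not measured with the filter at the 50th percentile. Of 114 values of the 8 genes under the alternatives, 88 were counted as the same, 25 as moved in size and 1 as reversed. The dimmer RHOC probe, at -0.05, was that only reversal. The number of the 8 that were called ran from 6 to 8, and the calls lost were those of RHOB, IQGAP3 and RHOC. The HMGA2 call was lost after quantile normalization, with or without normexp (-0.19 each), with array medians subtracted (-0.17), as the mean of probes (-0.01) and without vector replicate 1 (-0.35) or HMGA2 replicate 1 (-0.31). Of 548 values of named pathway genes and of the 5 nearest to IQGAP2, 538 stayed on their side of the threshold, 10 lost the call and 0 reversed. Scaling moved the rises: over all genes 2051 were higher as deposited, 3844 after quantile normalization, 3715 with array medians subtracted (and 2479 lower against 3943) and 3853 after normexp with quantile normalization, and among pathway genes 23 became 40, 39 and 40. At a threshold of 0.01, 3727 genes were called, 1037 of them higher, and 10 pathway genes were higher. Leaving out 1 array gave 5269 to 5517 genes called, 16 to 21 pathway genes higher and 60 to 65 lower. Same-numbered arrays deviated with r = -0.20 across genes, so the numbers were not taken to pair them: with the replicate block 5329 genes were called, 20 pathway genes higher and 59 lower, and with the crossed pairing, added after the data were seen, 7209, 30 and 77. The number of arrays limits the precision, and low signal limits IQGAP2 on the vector arrays most.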

Other observations

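Genes next to each of the 8 on the chromosome were read after the other results were seen, as the 5 tested genes on each side. Around IQGAP2, on chromosome 5, 1 of 10 neighbours was called higher and 5 lower, with a median of -0.38 log2, while IQGAP2 itself stood at 2.31. The lower neighbours included POLK, a translesion DNA polymerase, with 1359 and 1340 against 579 and 567. The thrombin receptor F2R, with 2105 and 2176 against 1082 and 1147, and its relative F2RL1 (-0.64) were lower too. Around RAC1, on chromosome 7, 1 neighbour was higher and 2 lower, with a median of 0.01 and a range from -0.69 (AIMP2) to 0.66 (ZNF316), so none came near the -2.36 of RAC1.

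RHOC, on chromosome 1, lay among 10 neighbours of which 0 were called higher and 6 lower (median -0.48), with MAGI3, a junctional scaffold, at -1.46 and CAPZA1, which caps actin filaments, at -0.81. Around RHOA 0 were higher and 4 lower (median -0.09), and around CDC42 0 and 2 (median -0.30). Around RHOB 3 were higher and 1 lower (median -0.06), and around IQGAP1 and IQGAP3 2 were higher and 2 lower each (medians -0.04 and -0.02). Over all genes tested 14.9% were higher and 28.7% lower. These are values of a few genes each, with no test of the neighbourhoods.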
